A study of Mus musculus with 6 samples.

Results

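The 9 genes described here are Sftpa1, Sftpd, Sftpb, Sftpc, Napsa, Abca3, Lamp3, Slc34a2 and Lgi3. Among them are genes for proteins of lung surfactant and of the lamellar body, the organelle that stores it. Slc34a2 encodes a transporter of the cell surface and Lgi3 a secreted protein. The 9 genes were chosen by name, and each was found on 1 row of a deposited table of 22239 genes. RNA was measured in bulk, with 2 samples in each of 3 epithelial populations sorted by endogenous reporter fluorescence from mouse lung at an age of 8 weeks. Bronchioalveolar stem cells (BASC) were positive for both CCSP-mCherry and SPC-YFP, alveolar type 2 (AT2) cells for SPC-YFP, and bronchiolar Club cells for CCSP-mCherry. CCSP is the product of Scgb1a1 and SPC that of Sftpc, so both reporters read out secretory genes of these cells. All 6 samples came from lung homogenates from which CD31 and CD45 bearing cells had been removed, and the labels give neither strain, genotype nor number of animals. The labels do not tie the replicates to separate animals, and the p-values therefore reflect only how far these samples differed, which may be technical.

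Surfactant is a film of phospholipid and protein that lowers surface tension in the alveoli. AT2 cells assemble its lipids and its hydrophobic proteins in lamellar bodies, which are related to lysosomes, and release them by exocytosis. SP-B and SP-C, the products of Sftpb and Sftpc, are small hydrophobic peptides cut from longer precursors. SP-A and SP-D, the products of Sftpa1 and Sftpd, are collectins, soluble lectins that bind carbohydrates on microbes. Club cells of the airway are also known to make SP-A, SP-B and SP-D, while SP-C is known as a product of AT2 cells.

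The table gives normalised counts, which were treated here as gene read counts scaled by 1 factor per sample. The spacing of its low values put the reads in it at between 10122640 and 18205636 per sample, and 3 reads, the most that a listed 0 may hide, at between 2.29 and 4.02 normalised counts, which covers counting error only. The sort labels were met by Scgb1a1, which had 43993 and 58791 normalised counts in the BASC samples, 413 and 302 in the AT2 samples and 751642 and 760675 in the Club samples. Of 23 further AT2 markers in the table, limma called 22 higher in BASC than in Club cells, all but Muc1, and 23 higher in AT2 than in Club cells. Of all genes, 5.77% and 8.42% were called higher in these comparisons. The markers were chosen with earlier results of these data known, so their counts are not a test of the labels. Some of them, such as Lpcat1, Scd1 and Lyz2, also belong to the lists of lipid synthesis or lamellar body genes below. Markers of other cells were summed as well. The 8 mesenchymal markers in the table summed to 155 and 15 normalised counts in the BASC samples, 358 and 92 in the AT2 samples and 61 and 127 in the Club samples. The 8 leukocyte markers in the table summed to between 2133 and 3217 in the 6 samples, mostly from Lcp1. The 7 endothelial markers summed to 764 and 673 in the BASC samples, 76 and 83 in the AT2 samples and 5584 and 5955 in the Club samples, nearly all from Kdr in Club cells, where Pecam1 had 3 and 6. The 11 ciliated cell markers summed to 1207 and 937 in the BASC samples, 954 and 886 in the AT2 samples, and 9446 and 9207 in the Club samples, and the part of these cells in the Club values was not tested. In bulk samples, fewer cells of a type and less RNA per cell cannot be told apart.

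BASC held 8 of the 9 genes at between 84.0% and 102% of their AT2 level and Lamp3 at 63.1%, and none of the 9 passed the test between these populations over all genes. Club cells held all 9 at lower levels, and here the genes differed among themselves. Sftpd, Abca3, Sftpb and Sftpa1 were present in Club cells at between 15.9% and 35.9% of their AT2 level. Lgi3 and Slc34a2 stood at 4.64% and 1.05% of that level in Club cells, and Napsa, Lamp3 and Sftpc at 0.535%, 0.0783% and 0.0687%. Differences were fitted with limma on log2(value + 1) over the 6 samples and 17721 genes, and a gene was called where its adjusted p was under 0.05. All 9 genes passed the filter on low values.

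**Figure D1:**
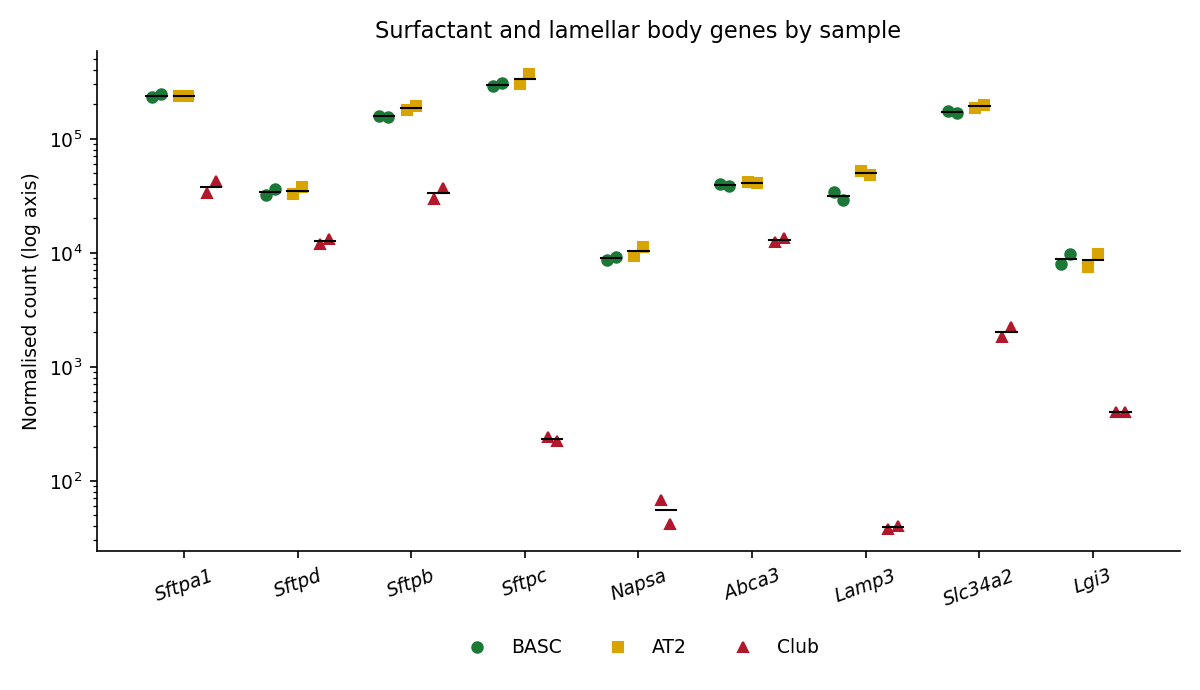
Normalised counts on a log axis for the 9 genes, with 1 point per sample (BASC circles, AT2 squares, Club triangles) and a line at each group mean. BASC and AT2 points lie close together, least so for Lamp3, while Club points lie lower, by the least for Sftpd and Abca3 and by the most for Sftpc and Lamp3.

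Of the collectins, Sftpa1 (ENSMUSG00000021789, GRCm38 chromosome 14, 41131782 to 41136452) had 230819 and 245719 normalised counts in the BASC samples, 238017 and 238052 in the AT2 samples and 33231 and 42594 in the Club samples. The BASC values enclosed those of AT2, and the Club values lay below both. Sftpa1 was 6.28-fold higher in BASC than in Club cells (log2 fold change 2.66 with an SE of 0.13, 2 samples in each group, limma adjusted p = 4.55e-05) and 6.28-fold higher in AT2 than in Club cells (adjusted p = 2.37e-05). Sftpd (ENSMUSG00000021795, chromosome 14, 41172214 to 41185149) had 32305 and 36442 in the BASC samples, 32731 and 37624 in the AT2 samples, and 12019 and 13271 in the Club samples. BASC and AT2 overlapped, and this was the smallest of the 9 differences from Club cells, 2.72-fold higher in BASC (1.44 ± 0.12, adjusted p = 0.000390) and 2.78-fold higher in AT2 (adjusted p = 0.000204). The collectins are neighbours on chromosome 14, 35.8 kb apart, with the mannose-binding lectin gene Mbl1, another collectin, between them. Other genes within 50 kb of the pair went the other way. Mat1a was called lower in BASC than in Club cells (log2 fold change -1.13, adjusted p = 0.0441) and in AT2 than in Club cells (-1.47, adjusted p = 0.0118). Dydc1 had 0 in the BASC and AT2 samples and 14 and 13 in the Club samples, and was called lower in AT2 (adjusted p = 0.0380). Mbl1 had 477 and 1033 in the BASC samples, 753 and 648 in the AT2 samples, and 116 and 195 in the Club samples, and it was called higher in BASC than in Club cells (adjusted p = 0.0162) and in AT2 than in Club cells (adjusted p = 0.0108). Its call in BASC was lost without BASC replicate 2 (adjusted p up to 0.098 over the alternatives), and that in AT2 without either AT2 replicate.

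Per kb of exon, Sftpa1 stood at 6.04 and 5.70 times Sftpd in BASC, 6.15 and 5.35 times in AT2, and 2.34 and 2.71 times in Club cells. The ratio was thus lower in both Club samples than in any other, and the ranges of BASC and AT2 overlapped. An exact permutation test of 2 samples against 2 cannot go below p = 0.333, so ratios between genes within a sample are given without a test.

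Sftpb and Sftpc encode the hydrophobic surfactant proteins. Sftpb (ENSMUSG00000056370, chromosome 6, 72304610 to 72314371) had 157940 and 156193 normalised counts in the BASC samples, 180272 and 193709 in the AT2 samples and 29454 and 36944 in the Club samples. Both BASC samples lay below both AT2 samples, and Club lay below all. Sftpb was 4.73-fold higher in BASC than in Club cells (log2 fold change 2.25 ± 0.13, adjusted p = 7.31e-05) and 5.63-fold higher in AT2 than in Club cells (adjusted p = 2.54e-05). Sftpc (ENSMUSG00000022097, chromosome 14, 70520941 to 70524081) had 290809 and 307458 in the BASC samples, 301267 and 373742 in the AT2 samples, and 240 and 224 in the Club samples. The sort selected on its reporter, so its fold over Club cells, 1289 in BASC and 1455 in AT2, is a check on the labels rather than a result. Per kb of exon, Sftpc stood at 3.504 and 3.747 times Sftpb in BASC and at 3.18 and 3.67 times in AT2. In Club cells, which were sorted without the Sftpc reporter, the same ratio was 0.0155 and 0.0115.

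Napsa encodes napsin A, an aspartic protease that takes part in cutting the SP-B precursor. Napsa (ENSMUSG00000002204, chromosome 7, 44572380 to 44586862) had 8707 and 9232 normalised counts in the BASC samples, 9330 and 11234 in the AT2 samples and 68 and 42 in the Club samples. BASC lay just below AT2, by less than the AT2 samples differed from each other, and Club cells were far lower. Napsa was 163-fold higher in BASC than in Club cells (log2 fold change 7.36 ± 0.23, adjusted p = 8.83e-06) and 187-fold higher in AT2 than in Club cells (adjusted p = 4.59e-06). Its exons overlap those of the antisense gene Gm15396, which had 25 and 17 in the BASC samples, 83 and 60 in the AT2 samples, and 0 in both Club samples. The strand setting of the counting is not given in the sources used here, so reads of the overlapping stretch cannot be told apart.

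Abca3 and Lamp3 encode proteins of the lamellar body membrane. ABCA3 pumps phospholipid into the lamellar body, and LAMP3, also called DC-LAMP, is a lysosome-associated membrane protein. Abca3 (ENSMUSG00000024130, chromosome 17, 24352023 to 24410201) had 39897 and 38570 normalised counts in the BASC samples, 41669 and 40705 in the AT2 samples and 12530 and 13463 in the Club samples. It was 3.02-fold higher in BASC than in Club cells (log2 fold change 1.59 ± 0.09, adjusted p = 7.61e-05) and 3.17-fold higher in AT2 than in Club cells (adjusted p = 3.49e-05). D330041H03Rik, a transcript on the other strand that overlaps Abca3 exons, had between 61 and 252 in the 6 samples.

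Lamp3 (ENSMUSG00000041247, chromosome 16, 19653381 to 19706365) had 33877 and 28987 normalised counts in the BASC samples, 51993 and 47686 in the AT2 samples and 38 and 40 in the Club samples. The 3 populations did not overlap, and BASC lay between the other populations but near AT2. Lamp3 was 806-fold higher in BASC than in Club cells (log2 fold change 9.61 ± 0.12, adjusted p = 6.16e-08) and 1278-fold higher in AT2 than in Club cells (adjusted p = 4.64e-08). Within samples and per kb of exon, Lamp3 stood at 2.37 and 2.10 times Abca3 in BASC, 3.49 and 3.27 times in AT2, and 0.00847 and 0.00830 times in Club cells. This ratio was lower in both BASC samples than in both AT2 samples, and far lower in Club cells.

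Slc34a2 encodes the sodium-phosphate cotransporter NaPi-IIb of the AT2 cell surface, which takes up phosphate. Slc34a2 (ENSMUSG00000029188, chromosome 5, 53049352 to 53071664) had 177043 and 167710 normalised counts in the BASC samples, 187818 and 199846 in the AT2 samples and 1823 and 2250 in the Club samples. Both BASC samples were under both AT2 samples, and Club cells were far under both. It was 84.6-fold higher in BASC than in Club cells (log2 fold change 6.41 ± 0.12, adjusted p = 5.69e-07) and 95.2-fold higher in AT2 than in Club cells (adjusted p = 3.15e-07). Gm17182, an antisense gene in the Slc34a2 locus that shares no exon with it, had 153 and 197 in the BASC samples, 109 and 86 in the AT2 samples, and 11 and 0 in the Club samples. Lgi3 encodes a secreted protein with leucine-rich repeats of a family known from synapses. Lgi3 (ENSMUSG00000033595, chromosome 14, 70530821 to 70538323) had 7966 and 9787 in the BASC samples, 7529 and 9803 in the AT2 samples, and 401 and 403 in the Club samples. BASC and AT2 overlapped fully, and Lgi3 was 22.1-fold higher in BASC than in Club cells (4.45 ± 0.17, adjusted p = 1.52e-05) and 21.6-fold higher in AT2 than in Club cells (adjusted p = 8.57e-06).

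Lgi3 lies 6.74 kb from Sftpc on chromosome 14, with no other gene of the table between them. On the far side of Sftpc lies Bmp1, a metalloprotease gene, which was chosen for mention after its values were seen. Bmp1 had 9245 and 10170 normalised counts in the BASC samples, 9314 and 10391 in the AT2 samples and 125 and 283 in the Club samples (BASC against Club cells, adjusted p = 8.37e-05). Within 50 kb of this pair, the other genes of the table, Reep4, Hr, Nudt18 and Fam160b2, were not called in any of the comparisons. In AT2 over Club cells the neighbours differed in size, with 48.3-fold for Bmp1, 1455-fold for Sftpc and 21.6-fold for Lgi3.

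Promoters are shown for Sftpa1 and Sftpb, which Club cells held at 15.9% and 17.8% of the AT2 level, and for Lamp3 and Slc34a2, which they held at 0.0783% and 1.05%. RefSeq promoters of GRCm38.p6 were matched for 5 of the 9 genes, and not for Sftpc, Sftpd, Napsa and Lgi3. The fifth, which is not shown, is that of Abca3, which Club cells held at 31.6% of the AT2 level. Each line gives the 250 bases before the RefSeq start, 5′ to 3′ on the gene's strand. Capitals mark CTCAAG, a form of the site bound by NKX2-1, TGTTTNC, a FOX site, TTNCNNAA, a C/EBP site, and TATAAA, the TATA box, each searched on both strands. No marked match overlapped one of another motif.
Sftpa1, chr14:41131538-41131787, plus strand: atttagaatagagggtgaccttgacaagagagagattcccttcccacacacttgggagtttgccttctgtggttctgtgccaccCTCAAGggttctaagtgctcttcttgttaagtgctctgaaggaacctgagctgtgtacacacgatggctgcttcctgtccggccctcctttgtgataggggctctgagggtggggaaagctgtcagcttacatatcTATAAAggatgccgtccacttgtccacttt
Sftpb, chr6:72304360-72304609, plus strand: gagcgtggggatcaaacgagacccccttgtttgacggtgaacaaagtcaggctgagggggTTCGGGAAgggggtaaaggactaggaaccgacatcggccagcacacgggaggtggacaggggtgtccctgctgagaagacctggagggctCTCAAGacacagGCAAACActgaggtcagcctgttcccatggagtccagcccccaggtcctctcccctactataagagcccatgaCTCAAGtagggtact
Lamp3, chr16:19706366-19706615, minus strand: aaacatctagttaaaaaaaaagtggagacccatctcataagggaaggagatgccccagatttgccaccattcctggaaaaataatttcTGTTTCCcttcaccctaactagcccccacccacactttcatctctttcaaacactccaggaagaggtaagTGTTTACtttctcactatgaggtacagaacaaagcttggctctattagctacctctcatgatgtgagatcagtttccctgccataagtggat
Slc34a2, chr5:53049103-53049352, plus strand: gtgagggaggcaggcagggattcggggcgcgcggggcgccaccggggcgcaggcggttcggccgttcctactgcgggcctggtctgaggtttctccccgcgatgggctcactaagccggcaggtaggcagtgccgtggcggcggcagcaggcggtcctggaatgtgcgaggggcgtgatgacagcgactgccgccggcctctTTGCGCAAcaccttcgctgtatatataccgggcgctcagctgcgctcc

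CTCAAG stood in 2 of the 5 promoters, 166 bases before the start of Sftpa1 and 100 and 15 bases before that of Sftpb, and in 13.3% of 32851 promoter windows of the same length. TGTTTNC stood in Sftpb, 88 bases before the start, and at 2 places in Lamp3, 162 and 92 bases before it, and in 17.8% of all windows. TTNCNNAA was found in Sftpb and Slc34a2 and in 36.8% of all windows, and TATAAA in Sftpa1 and in 12.4%. Abca3 held none of these letters in its window. GC content was 50.0% for Sftpa1, 58.4% for Sftpb, 42.4% for Lamp3, 69.6% for Slc34a2 and 67.6% for Abca3, against a median of 52.4%. A match of letters is a description of the window and not a site.

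The first comparison, of BASC with AT2 cells, asks whether cells carrying both reporters hold the surfactant genes at the AT2 level. Limma called 0 of the 9 genes, and of all genes tested 0.632% were called, 0.553% higher and 0.0790% lower in BASC. At an unadjusted p under 0.05, limma found 1 of the 9 lower, Lamp3, and 0 higher. At that threshold 1079 of all 17721 genes tested were lower in BASC and 1257 higher. In BASC, Sftpa1 stood at 100.1% of its AT2 mean (95% interval of the fit 80.8% to 124%), Sftpd at 97.7% (80.9% to 118%), Abca3 at 95.3% (82.2% to 110%) and Lgi3 at 102% (78.4% to 135%). Slc34a2 stood at 88.9% in BASC (73.1% to 108%), Sftpc at 88.6% (73.0% to 109%), Napsa at 87.2% (60.2% to 127%) and Sftpb at 84.0% (68.5% to 103%). Lamp3 was the lowest, at 63.1% (51.4% to 77.0%, log2 fold change -0.67 ± 0.12, adjusted p = 0.0819), and it was not called over all genes. With genes of a mean under 100 left out of the fit, Lamp3 was called lower in BASC (adjusted p = 0.0156), and over the 15 alternatives its adjusted p ran to 0.433. The count over all genes rested on both BASC samples, with 3 genes called without BASC replicate 1 and 4 without BASC replicate 2, against 112 with all samples. Of the 23 further AT2 markers, 0 were called higher and 2 lower in BASC than in AT2 cells, Itih4 and Cd74, and neither was called without any 1 of the BASC or AT2 samples. At an unadjusted p under 0.05, 14 of these 23 markers were lower in BASC and 0 higher, against 1079 and 1257 of all 17721 genes. Their median log2 fold change was -0.51.

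Both BASC samples were below both AT2 samples for 5 of the 9 genes, Sftpb, Napsa, Abca3, Lamp3 and Slc34a2, as they were for 18.9% of all genes tested. No gene of the 9 had both BASC samples above both AT2 samples, as 18.3% of all genes did. The median log2 fold change of the 9 was -0.17, against 0.00 over all genes tested. The intervals of the 8 genes other than Lamp3 include equal levels and reach down to 60.2% of the AT2 level for Napsa, so differences within them were not detectable with 2 samples each. Scgb1a1 and 17 further Club cell markers summed to 102368 and 124994 in BASC and to 19315 and 22194 in AT2. BASC were sorted on the Scgb1a1 reporter, so the part of this difference that Scgb1a1 makes up is set by the sort. The part of Club cells in the BASC values was not tested.

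**Figure D2:**
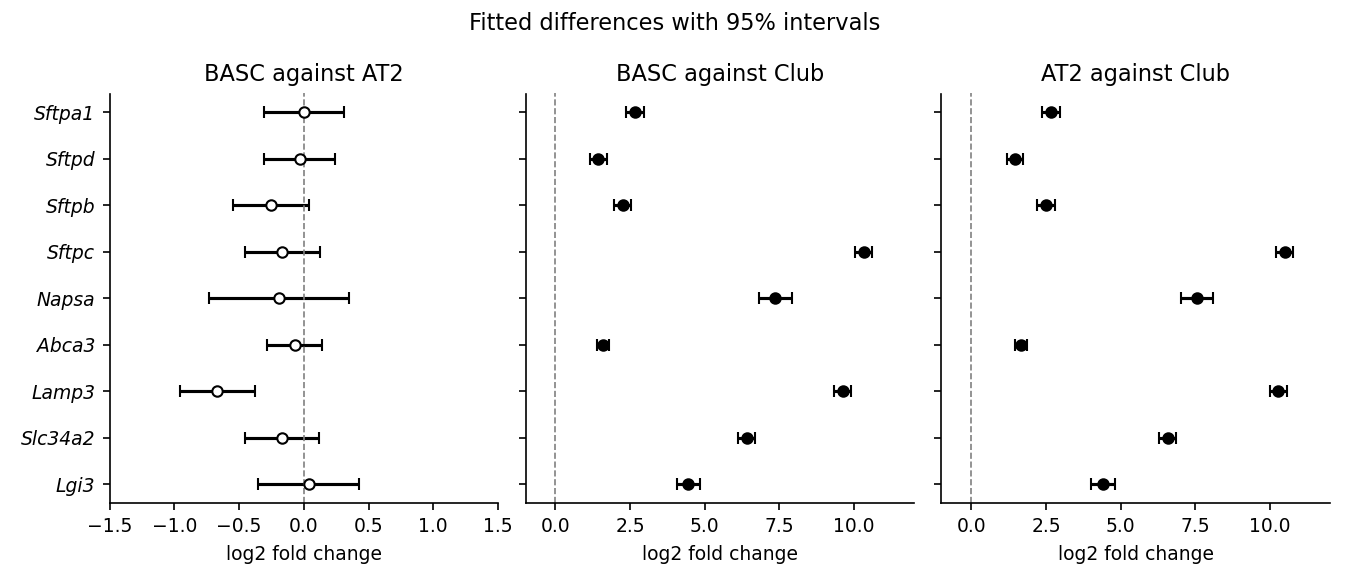
Fitted log2 fold changes of the 9 genes in the 3 comparisons, with bars for 95% intervals; filled points were called at an adjusted p under 0.05 and open points were not. Every gene was called higher in BASC and in AT2 than in Club cells, and none was called between BASC and AT2, where Lamp3 lay lowest.

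BASC and AT2 cells were each compared with Club cells to ask how far the airway population differs. All 9 genes were called higher in BASC than in Club cells, where 5.77% of all genes tested were called higher and 5.42% lower, and all 9 were called higher in AT2 than in Club cells, where 8.42% were called higher and 9.71% lower. For all 9 genes the BASC samples lay above both Club samples, as for 23.9% of all genes (30.1% lay below), and the AT2 samples did too, as for 26.0% (32.0% lay below). Both comparisons share the Club samples. Sftpc is counted among the 9 and in their medians, but the sort selected on its reporter. Its calls here are therefore a check on the labels rather than a result. All 9 calls of each comparison held in each of the 15 alternatives, including the 6 that leave out 1 sample. The median log2 fold change was 4.45 for BASC and 4.41 for AT2, against -0.10 over all genes tested in both comparisons. With quantile normalization the median of all genes became 0.01 and 0.03.

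The level in Club cells was far over the detection limit for each gene of the group. Lamp3, the lowest, had 38 and 40 normalised counts where 3 reads were worth 2.47 and 3.11. The 23 further AT2 markers spanned a wide range there, from 0.0101% of the AT2 level for Il33, an alarmin gene, to 62.0% for Muc1, a mucin gene, with a median of 1.28%. Of these markers, 3 stood at or above the share of Sftpa1, 15.9%, in Club cells, namely Ank3, Cd36 and Muc1, and 20 stood below it. Il33 had 2361 and 1956 in the BASC samples, 5633 and 4314 in the AT2 samples, and 0 and 1 in the Club samples. Shares in Club cells thus varied among AT2 genes in general as well as among the 9. The grouping of Sftpa1, Sftpb, Sftpd and Abca3 was made after their values were seen.

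The 9 genes took 7.22% and 7.42% of all normalised counts in the BASC samples, 7.56% and 8.18% in the AT2 samples, and 0.705% and 0.827% in the Club samples. BASC lay below AT2 in this share without overlap. In Club cells the sum was made up mainly of Sftpa1, with 37.0% and 39.0% of it, and Sftpb, with 32.8% and 33.8%, and Sftpc gave 0.267% and 0.205%. In BASC the largest part was Sftpc, with 29.7% and 30.7%, and in AT2 likewise, with 28.7% and 32.4%. Among protein coding genes, Sftpc ranked first in both BASC samples and in AT2 replicate 2, and second to Scd1 in AT2 replicate 1. Of the 20 highest protein coding genes, 7 were of this group in each BASC and each AT2 sample and 2 in each Club sample, Sftpa1 and Sftpb.

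**Figure D3:**
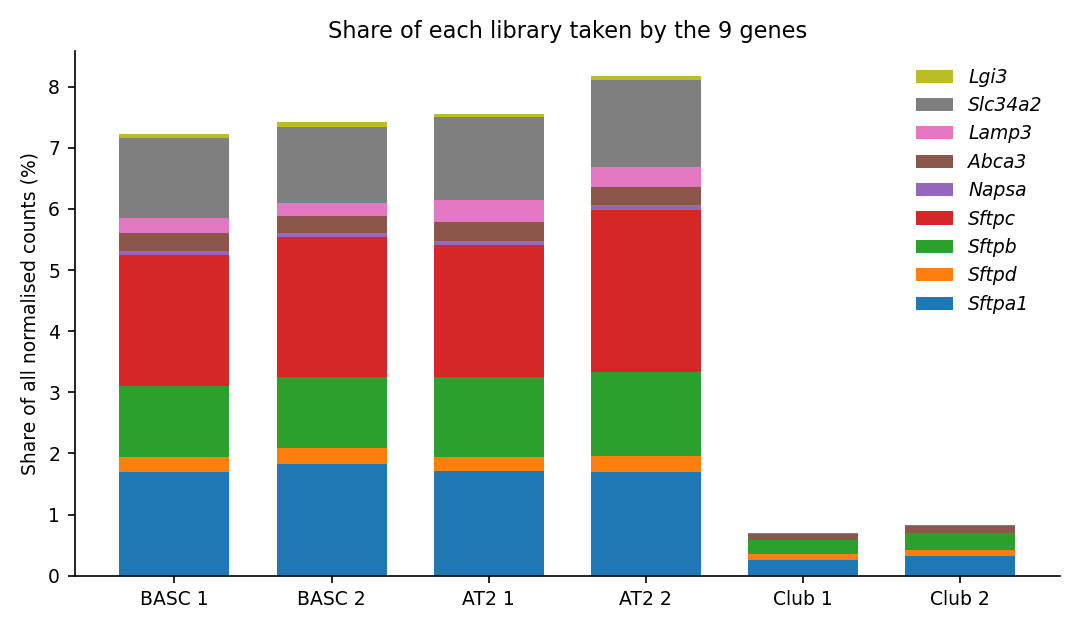
Share of all normalised counts of each library taken by the 9 genes, stacked by gene, in percent. The stacks reach 7.22% and 7.42% for the BASC samples, 7.56% and 8.18% for the AT2 samples, and 0.705% and 0.827% for the Club samples, where almost no Sftpc or Slc34a2 is seen.

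Levels of different genes were set beside each other as normalised counts per kb of exon. In BASC the order was Sftpc (289297), Sftpa1 (83311), Sftpb (79810), Slc34a2 (34386), Sftpd (14222), Lamp3 (9366), Abca3 (4185), Napsa (3372) and Lgi3 (2277). AT2 differed from BASC in the order at only 2 places, where Sftpb (95016) stood over Sftpa1 (83229) and Lamp3 (14851) over Sftpd (14554). Lamp3, at 15493 and 14209, and Sftpd, at 13542 and 15566, overlapped in AT2 and so do not differ beyond their spread. In Club cells the order was Sftpb (16869), Sftpa1 (13256), Sftpd (5232), Abca3 (1386), Slc34a2 (406), Sftpc (224), Lgi3 (103), Napsa (20.7) and Lamp3 (11.6). The Club samples had 14966 and 18772 for Sftpb and 11619 and 14893 for Sftpa1, which came close without overlapping.

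Relatives of the 9 genes varied in pattern. Of 8 other ABCA transporter genes tested, Abca17 was called higher in BASC than in Club cells, with 568 and 457 normalised counts in the BASC samples, 569 and 527 in the AT2 samples and 6 and 18 in the Club samples (BASC against Club cells, adjusted p = 0.000954). Abca1, the cholesterol exporter, was called higher in AT2 than in Club cells (adjusted p = 0.0230), a call lost without BASC replicate 1, AT2 replicate 1 or Club replicate 2 (1 gene higher each). Abca4 and Abca13 were called lower in AT2 than in Club cells (adjusted p = 0.00667 and 0.00929), the call of Abca13 being lost without either Club replicate. Abca2, Abca5, Abca7 and Abca8a were not called in any comparison. Per kb of exon, Abca3 stood at 4185 in the BASC samples, 4394 in the AT2 samples and 1386 in the Club samples, and Abca2, the highest of its relatives, at 151 in the BASC samples, 171 in the AT2 samples and 135 in the Club samples.

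Lamp1, a lysosomal membrane gene of most cells, had 4903 and 4948 normalised counts in the BASC samples, 4891 and 5327 in the AT2 samples and 3600 and 3265 in the Club samples. It was called 0.52 higher on the log2 scale in BASC than in Club cells (adjusted p = 0.0270) and 0.57 higher in AT2 than in Club cells (adjusted p = 0.0126). These calls were lost under quantile normalization, the first also without either BASC or either Club replicate and the second without AT2 replicate 2 or Club replicate 2. Lamp2 and Cd68 were not called. Of the aspartic proteases, the lysosomal Ctsd was not called, with 1108 and 915 in the BASC samples, 784 and 1133 in the AT2 samples, and 1035 and 1079 in the Club samples. Bace2 was listed at 0 in BASC and AT2 against 162 and 168 in Club cells, at least 48.8-fold lower in BASC (adjusted p = 0.00505). Bace1 was not called, and Ctse was under the filter. Pgc, the gene of another aspartic protease, had 173 and 67 in the BASC samples, 34 and 153 in the AT2 samples, and 0 and 10 in the Club samples, and was not called (BASC against Club cells, adjusted p = 0.0626). Psap, which encodes the saposin precursor, a relative of SP-B, went the other way, with 699 and 834 in the BASC samples, 465 and 543 in the AT2 samples, and 1931 and 2056 in the Club samples (BASC against Club cells, log2 fold change -1.38, adjusted p = 0.00329).

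Relatives of Sftpc with a BRICHOS domain, Itm2a, Itm2b and Itm2c, were not called, and Itm2b had 8211 and 7577 in the BASC samples, 4832 and 6038 in the AT2 samples, and 7040 and 6765 in the Club samples. Gkn3, a further one, was called higher in BASC than in Club cells at low values, 32 and 70 in the BASC samples, 51 and 29 in the AT2 samples, and 0 in both Club samples (adjusted p = 0.0166), and the call was lost without BASC replicate 2 or either Club replicate. The phosphate transporter Slc20a1 was called higher in BASC than in Club cells (adjusted p = 0.0383), which was lost without BASC replicate 1 or 2, AT2 replicate 1 or 2, or Club replicate 2. It was also called higher in AT2 than in Club cells (log2 fold change 1.95, adjusted p = 0.00700), and that call held in all 15 alternatives. Slc20a2 and the phosphate exporter gene Xpr1 were not called. Lgi2 was called higher in AT2 than in Club cells, at 44 and 63 in the BASC samples, 263 and 312 in the AT2 samples, and 23 and 1 in the Club samples (AT2 against Club cells, adjusted p = 0.0195), which was lost without either AT2 replicate. Lgi1 and Lgi4 were under the filter. Adam22, known as a receptor of LGI proteins in the brain, had 1124 and 1153 in the BASC samples, 905 and 1416 in the AT2 samples, and 363 and 475 in the Club samples (BASC against Club cells, adjusted p = 0.0126, lost without either BASC replicate). Its call in AT2 against Club cells (log2 fold change 1.44, adjusted p = 0.00810) held in each fit that left out 1 sample and was lost with no variance trend. Of the 5 phosphate transporters and LGI partners tested, 3 were called higher in AT2 than in Club cells, Slc20a1, Lgi2 and Adam22, and 2 in BASC, Slc20a1 and Adam22. Of all genes, 8.42% were called higher in AT2 and 5.77% in BASC.

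**Figure D4:**
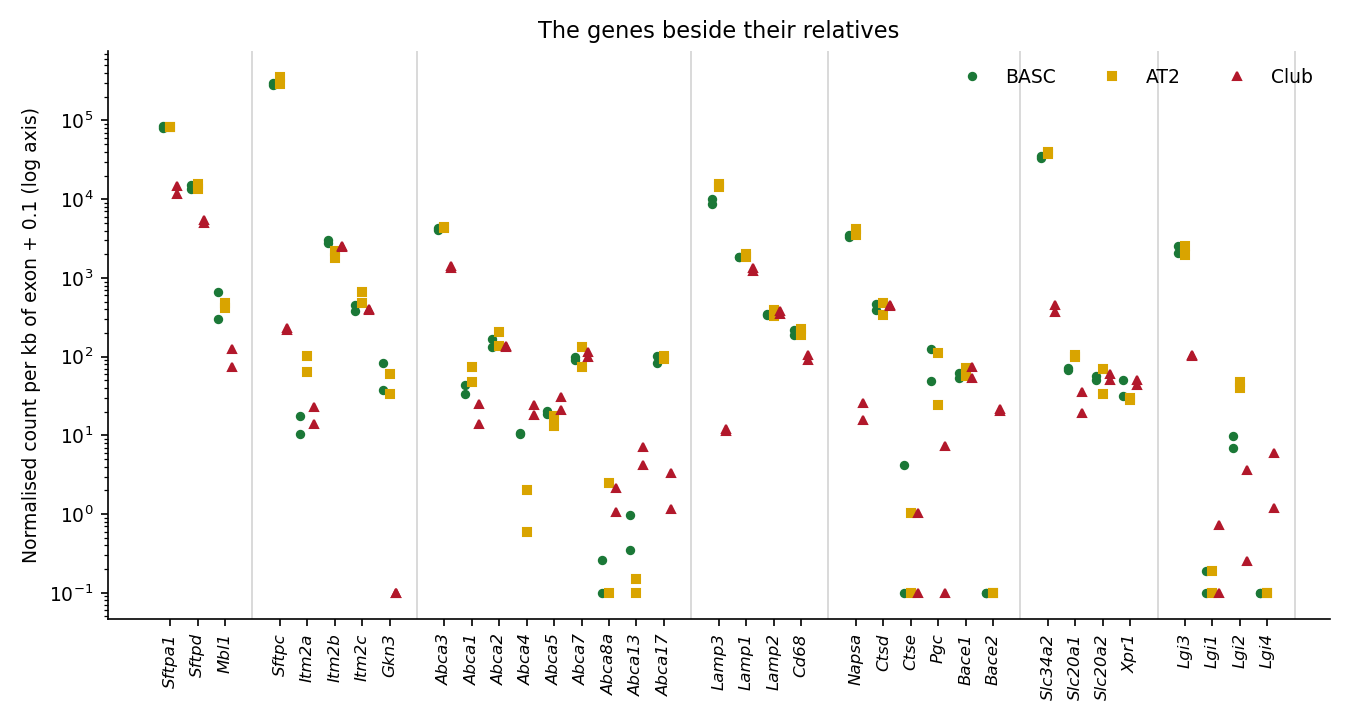
Normalised counts per kb of exon, with 0.1 added and on a log axis, for 8 of the 9 genes (all but Sftpb) and their relatives, in blocks by family, with 1 point per sample (BASC circles, AT2 squares, Club triangles). The first gene of each block is the highest of it in BASC and AT2. Itm2b, Abca2, Lamp2, Ctsd and Slc20a2 show Club values close to those of the other populations.

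Genes of surfactant lipid synthesis followed the group in part. Of 33 tested, 0 were called between BASC and AT2 by limma. At an unadjusted p under 0.05, 4 were higher and 6 lower in BASC, against 1257 and 1079 of all 17721 genes. Against Club cells 18 were higher in BASC and 1 was lower, 54.5% and 3.03% of the list, against 5.77% and 5.42% of all genes. The median log2 fold change was 1.08, against -0.10 over all genes. In AT2 against Club cells 20 were higher and 4 were lower, with a median of 1.52. These are 60.6% and 12.1% of the list, against 8.42% and 9.71% of all genes. Lpcat1, which remodels phosphatidylcholine to the dipalmitoyl form of surfactant, had 23055 and 20101 normalised counts in the BASC samples, 32986 and 31154 in the AT2 samples and 514 and 635 in the Club samples (BASC against Club cells, adjusted p = 4.44e-06). Scd1, a fatty acid desaturase gene, had 245794 and 93456 in the BASC samples, 304560 and 152450 in the AT2 samples, and 2555 and 2187 in the Club samples (adjusted p = 0.000313), with replicates of BASC that differed more than the groups of BASC and AT2. Fabp5, a fatty acid binding protein gene, had 1782 and 1032 in the BASC samples against 0 and 17 in Club cells (adjusted p = 0.00501, lost without either BASC replicate). The choline kinase gene Chka, of the first step of phosphatidylcholine synthesis, was not called in any comparison, with 2895 and 3746 in the BASC samples, 3022 and 2598 in the AT2 samples, and 2234 and 2341 in the Club samples. The gene lower in BASC was Prdx6, chosen after its values were seen, an antioxidant enzyme with phospholipase activity, at 4219 and 5720 in BASC samples and 16258 and 16478 in Club cells (adjusted p = 0.00205); without AT2 replicate 1 there were 2 lower. The 4 lower genes in AT2 numbered 2 without AT2 replicate 1, AT2 replicate 2 or Club replicate 2, and 1 without Club replicate 1.

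Of 25 genes of processing and folding tested, 0 were called between BASC and AT2 by limma. At an unadjusted p under 0.05, 2 were higher and 2 lower in BASC, against 1257 and 1079 of all 17721 genes. In BASC against Club cells 3 were called higher and 1 lower, a list median of -0.07. These are 12% and 4% of the list, against 5.77% and 5.42% of all genes. The same 4 genes were called in AT2 against Club cells, where 8.42% and 9.71% of all genes were. At an unadjusted p under 0.05, 6 were higher and 3 lower in BASC than in Club cells, against 2001 and 2352 of all genes. In AT2 against Club cells 5 were higher and 5 lower at that threshold, against 2471 and 2936. The 4 called genes were Ctsh, a protease that cuts the SP-B precursor, P4ha1, a collagen prolyl hydroxylase subunit, Nedd4l, a ubiquitin ligase, and, lower, Psap. With the variance prior held constant over the range of levels, 0 genes of this list were called in BASC against Club cells. Ctsh had 5047 and 5199 normalised counts in the BASC samples, 5097 and 5916 in the AT2 samples and 2291 and 2170 in the Club samples (BASC against Club cells, adjusted p = 0.00107). The call of Nedd4l in BASC (adjusted p = 0.0372) was lost without BASC replicate 1 or 2 or Club replicate 1 or 2, and its call in AT2 without AT2 replicate 2 or Club replicate 2. The chaperone gene Hspa5 was not called, with 11855 and 9352 in the BASC samples, 11296 and 9319 in the AT2 samples, and 8169 and 8094 in the Club samples. The genes lower in BASC than in Club cells numbered 2 without AT2 replicate 1 or AT2 replicate 2, and those lower in AT2 numbered 2 without AT2 replicate 1.

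Of 31 genes of the lamellar body and related lysosomal organelles, 0 were called between BASC and AT2 by limma. At an unadjusted p under 0.05, 1 was higher and 2 lower in BASC, against 1257 and 1079 of all 17721 genes. Leaving out either of the Club samples gave 1 call between BASC and AT2, Lyz2, higher in BASC. Against Club cells 6 were higher in BASC and 1 was lower, a median of 0.00. These are 19.4% and 3.23% of the list, against 5.77% and 5.42% of all genes. In AT2 against Club cells the called shares were 25.8% higher and 9.68% lower, against 8.42% and 9.71% of all genes. Lyz2, the lysozyme gene of AT2 cells, had 254508 and 262419 normalised counts in the BASC samples, 178232 and 179734 in the AT2 samples and 2179 and 990 in the Club samples (BASC against Club cells, adjusted p = 2.33e-05). Rab27a, a GTPase of secretory organelles, had 4138 and 4188 in the BASC samples, 3444 and 2578 in the AT2 samples, and 1387 and 1208 in the Club samples (adjusted p = 0.00103). The genes higher in BASC numbered 3 without BASC replicate 1. In AT2 against Club cells 8 were higher and 3 were lower, with 5 higher without AT2 replicate 2 and 1 lower without Club replicate 1 or Club replicate 2.

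Of 27 genes of secretion and uptake, 5 were higher and 3 lower in BASC than in Club cells, a median of 0.10. These are 18.5% and 11.1% of the list, against 5.77% and 5.42% of all genes. In AT2 against Club cells the called shares were 22.2% higher and 25.9% lower, against 8.42% and 9.71% of all genes. Adgrf5, a receptor that limits the surfactant pool, had 20692 and 18639 normalised counts in the BASC samples, 21673 and 23947 in the AT2 samples and 3955 and 4749 in the Club samples (BASC against Club cells, adjusted p = 7.91e-05). The adenosine receptor gene Adora2b had 565 and 495 in the BASC samples, 706 and 626 in the AT2 samples, and 125 and 88 in the Club samples (adjusted p = 0.00233). Fer1l6, a ferlin gene, was listed at 0 in BASC and AT2 and had 1353 and 1336 in Club cells, at least 397-fold lower in BASC (adjusted p = 0.000940). Those higher numbered 3 without BASC replicate 1, BASC replicate 2 or Club replicate 2, and those lower 1 without either Club replicate. In AT2 against Club cells 6 were higher and 7 lower, with 4 lower without AT2 replicate 1 and 3 without either Club replicate.

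Of 34 regulators of surfactant genes, 10 were higher and 6 lower in BASC than in Club cells, a median of 0.01. These are 29.4% and 17.6% of the list, against 5.77% and 5.42% of all genes. In AT2 against Club cells the called shares were 29.4% higher and 32.4% lower, against 8.42% and 9.71% of all genes. The 6 lower were Sox9 (log2 fold change -6.99, limma adjusted p = 0.00735), Klf5 (-1.10), Rara (-1.07), Epas1 (-1.07), Cebpb (-1.03) and Nr2f2 (-0.79). Etv5, a transcription factor downstream of FGF signalling, had 9591 and 8126 normalised counts in the BASC samples, 9905 and 10024 in the AT2 samples and 55 and 83 in the Club samples (BASC against Club cells, adjusted p = 7.10e-06). Nkx2-1, Cebpa and Foxa2, factors known to act on surfactant promoters, are given for that role and were chosen after their values were seen. Nkx2-1 had 6583 and 6450 in the BASC samples, 7181 and 6482 in the AT2 samples, and 2887 and 2864 in the Club samples (BASC against Club cells, adjusted p = 0.000656), and Cebpa was 1.20 higher in BASC on the log2 scale (adjusted p = 0.00317), both calls being lost with the variance prior held constant over the range of levels. Foxa2 was not called, with 1847 and 1875 in the BASC samples, 1667 and 1565 in the AT2 samples, and 1127 and 1409 in the Club samples. Of these regulators, Sox2 alone was called between BASC and AT2, with 438 and 343 in BASC and 0 in both AT2 samples, a fold of at least 142 over AT2 (adjusted p = 0.000934), which was lost without either BASC replicate. Those higher in BASC than in Club cells numbered 6 without BASC replicate 2. Those lower numbered 2 without BASC replicate 1, and 3 without BASC replicate 2 or either Club replicate. In AT2 against Club cells 10 were higher and 11 lower, with 7 lower without Club replicate 1 and 5 without Club replicate 2.

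**Figure D5:**
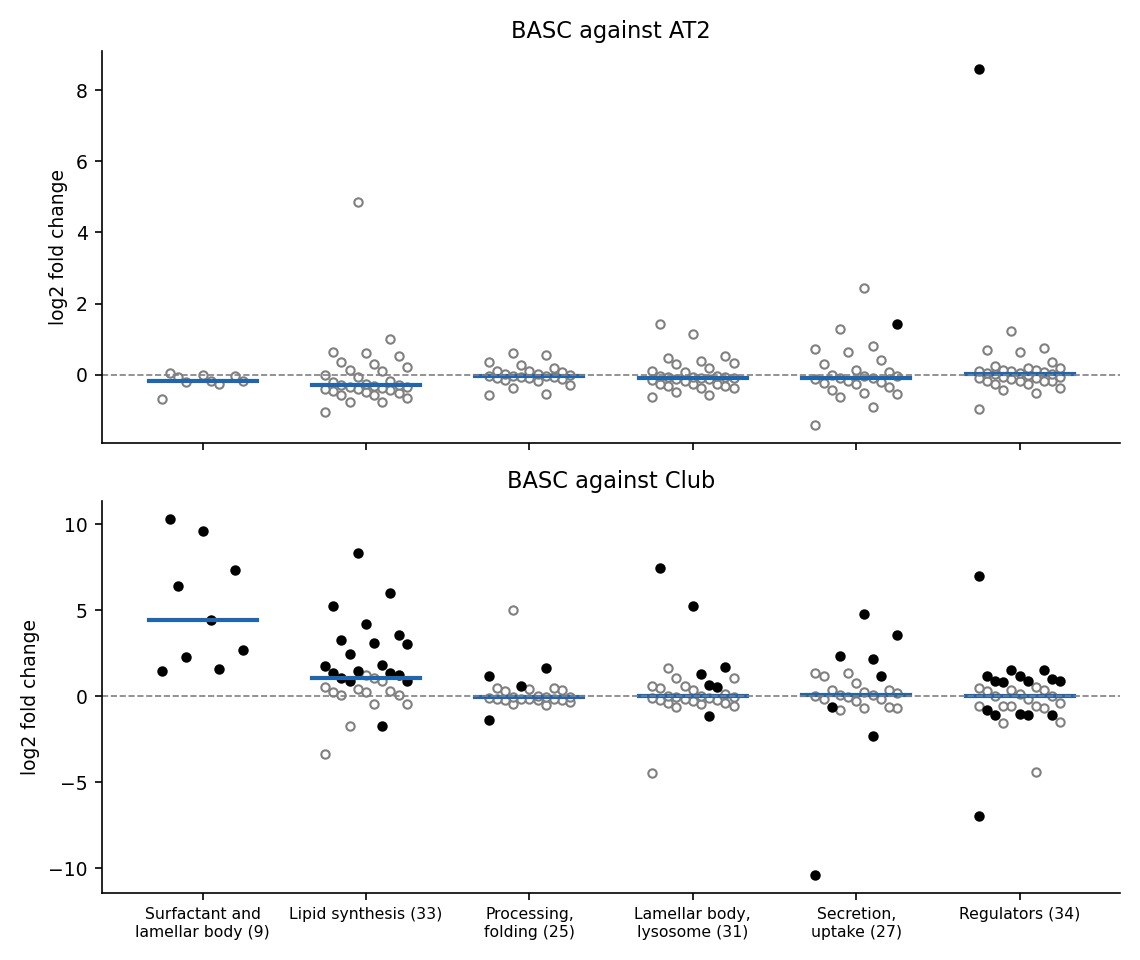
Log2 fold changes of tested genes in BASC against AT2 (top) and BASC against Club cells (bottom) for the 9 genes and 5 related lists, with the number tested in parentheses, filled points for called genes, open points for genes not called and a blue line at each median. In the top panel all 9 genes have open points, and in the bottom panel the medians are 4.45 for the 9 genes, 1.08 for lipid synthesis and between -0.07 and 0.10 for the other lists.

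The genes most like the group were sought among 8956 other protein coding genes with a mean of at least 100, by the root mean square distance of log2 values, centred per gene over the 6 samples, from the mean profile of the 9. Among the 6 nearest were Cldn18 (distance 0.05), a tight junction gene, Rbpjl (0.10), Axin2 (0.15), a target gene of Wnt signalling, Lpcat1 (0.25) and Elfn1 (0.26). Cldn18 had 6021 and 5777 normalised counts in the BASC samples, 6220 and 7015 in the AT2 samples and 158 and 183 in the Club samples. The group's own genes lay farther from their mean profile than these, at between 0.39 for Lgi3 and 2.45 for Sftpc.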

How the data were processed

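The submitters' processing notes name FastQC, STAR 2.4.0a, the mm10 (GRCm38) build, and featureCounts 1.4.5-p1 from the Subread package. Per the labels' protocols, libraries were made from total RNA with a stranded kit for picogram inputs. The deposited signal is 1 normalised count per gene and sample, scaled and rounded by the authors; the scaling method is not given in the sources used here. Because values are rounded, whole reads could not be recovered exactly and no count model was run.

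All tests used log2(value + 1), and a gene was tested if 2 or more samples reached 10. Groups were fitted together in limma 3.58.1 under R 4.3.3 (eBayes with a trend, 3 residual and 4.20 prior degrees of freedom), 2-sided, with Benjamini-Hochberg adjustment over 17721 genes. The fit was tested on simulated data. Fold changes are ratios of group means; against a group at 0, a floor of 3 reads, averaged over the group, gives a lower bound. Exon lengths are unions of GENCODE M21 exons; coordinates are as deposited. The rule for naming genes took the 9 genes, their relatives, and per list and comparison up to 4 called genes with the largest change and the highest gene not called, of which some are printed. Members and lists were chosen with earlier results of these data known. Alternatives changed the pseudocount, filter, scaling, samples fitted, variance trend and replicate block. Some results are not reported here.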

Additional observations from a re-analysis of the deposited data

How the results depend on the processing

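The 27 log2 fold changes of the 9 genes were recomputed under 15 alternatives. Of 405 values, 395 kept direction and side of the threshold. Lamp3 passed in BASC against AT2 with genes of a mean under 100 left out, which gave 1 called gene of the 9 there and tests fewer genes. The 9 values that turned direction were all in BASC against AT2 and none was called. Under quantile normalization they were -0.33 for Sftpa1, 0.17 for Sftpc, 0.024 for Sftpd and 0.0058 for Abca3. Leaving out 1 sample turned Sftpd (without BASC replicate 1 or AT2 replicate 2; range -0.13 to 0.068), Sftpa1 (without BASC replicate 2; range -0.044 to 0.046) and Lgi3 (without BASC replicate 2 or AT2 replicate 1; range -0.15 to 0.23). The cause was not tested.

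Over all genes, BASC against AT2 gave 112 calls, 176 with a pseudocount of 10 and 342 with genes of a mean under 100 left out. With no variance trend, BASC against Club cells gave 1183 calls in place of 1983, and AT2 against Club cells 2028 in place of 3212. Without 1 sample the counts ran from 3 to 112, from 853 to 1888 and from 1539 to 3291 in these comparisons; fewer samples were fitted, and the lone sample of a group was assumed to vary like the others. The lowest counts came without BASC replicate 1 in the first and without Club replicate 1 in the others. Over all genes tested, differences between replicates 1 and 2 were not correlated between groups (r 0.006 to 0.012). This r counts genes of low values as much as others, so it cannot show that the samples were unpaired. In each group Scd2 was lower in replicate 2 than in replicate 1, and Sftpd was higher. These are examples, and how many genes moved alike in all groups was not counted. Sftpc did not, being higher in replicate 2 of BASC and AT2 and lower in that of Club cells. With the replicate number as a block, the counts were 120, 1861 and 3045, and no call of the 9 genes changed. For counts of list genes called, 1276 of 1440 values stayed within 1.5 times and 164 moved. The 1276 include counts that stayed at 0, as many did in BASC against AT2. With no variance trend, genes higher in BASC than in Club cells numbered 9 for lipid synthesis, 3 for the lamellar body and 3 for regulators. Quantile normalization shifted the median of all genes by over 0.1 against Club cells, from -0.10 to 0.01 in BASC and 0.03 in AT2. Depth limits genes near 3 reads, which none of the 9 was.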

Other observations

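Ager, a marker of alveolar type 1 cells, had 8336 and 8746 normalised counts in the BASC samples, 8105 and 9791 in the AT2 samples, and 1390 and 1762 in the Club samples. It was called higher in BASC than in Club cells (limma adjusted p = 0.000107) and in AT2 than in Club cells (adjusted p = 6.17e-05), and it was not called between BASC and AT2 (adjusted p = 0.913). Pdpn, another marker of these cells, was listed at 0 in BASC and had 6 and 17 in AT2, against 561 and 457 in Club cells, at least 150-fold lower in BASC (adjusted p = 0.00178). Of 15 type 1 markers tested, 3 were higher and 1 lower in BASC than in Club cells, and 0 were called between BASC and AT2 by limma. Those called against Club cells are 20% and 6.67% of the list, against 5.77% and 5.42% of all genes. At an unadjusted p under 0.05, 2 were higher and 3 lower in BASC than in AT2, against 1257 and 1079 of all 17721 genes.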
